A study of Capra hircus with 30 samples.

Results

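Receptors of the BMP, activin and TGF-beta ligands were followed in goat granulosa cells, which line the ovarian follicle and nurse the oocyte. The genes were taken by name, and their NCBI gene numbers were matched through RefSeq's table of goat genes (assembly ARS1.2). All 9 were present among the 20125 features of the deposited table, of which 17946 carry an NCBI gene number. They comprise the type I receptors BMPR1A, BMPR1B, ACVR1 and TGFBR1, the type II receptors BMPR2, ACVR2A, ACVR2B and TGFBR2, and the co-receptor TGFBR3.

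A ligand of this superfamily binds a type II receptor, which phosphorylates a type I receptor, and the type I receptor in turn phosphorylates SMAD proteins that enter the nucleus. In the follicle, the oocyte secretes GDF9 and BMP15 and the granulosa cells secrete activins and inhibins, so granulosa cells receive these signals from the oocyte and from each other. BMPR1B is known for variants that raise litter size in sheep and is studied for the same trait in goats.

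The data were 30 libraries made from total RNA of granulosa cells of Ji'ning grey goats, 5 in each of 6 groups. The limits of the classes are given as more than 3 kids per birth (high fertility) and fewer than 2 (low fertility) in the series design, and as 3 or more and 2 or fewer in the methods. Each class was sampled from large, medium and small follicles. The groups are HLG, HMG and HSG for high fertility and LLG, LMG and LSG for low fertility, and a library is named by its group and its number (5, 7, 8, 9 or 10). Per the study's methods, each class drew follicles from several goats, and the granulosa cells of a stage were then divided into 5 samples. No source links a library to its animals, so the 5 libraries of a group are not shown to be different animals. The p-values therefore measure only the spread between these libraries, which may be technical. The labels name no drug treatment or genetic change for any group. Although the series is described as single-cell sequencing, each library was made from several pooled cells per the methods, so fewer cells of a type and less RNA per cell cannot be told apart.

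Expression was given as FPKM, a fragment count corrected for the length of the gene and the size of the library. Features above 0 FPKM numbered 301 to 9256 per library, read totals were not used, and genes that most cells use were often listed at 0 (23 such genes were above 0 in 2 to 26 of the 30 libraries, GAPDH in 12). A receptor at 0 is therefore described as listed at 0, which does not show that it was absent. The cell type is taken from the labels. The 11 granulosa cell markers measured were above 0 in 1 to 18 libraries, with a median of 5. FSHR and AMH were above 0 in 1 library each, INHA in 2, HSD17B1 in 3, LHCGR in 4 and NR5A2 in 5. FST was above 0 in 8 libraries, CYP19A1 and INHBB in 10 each, INHBA in 14 and GJA1 in 18. The 4 libraries HLG-5, HSG-5, LLG-5 and LLG-7 were not found in the study's list of mapping statistics, and they had 301 to 1974 features above 0.

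The receptors were seen in more libraries than most genes, at low levels. BMPR2 was above 0 in 23 of 30 libraries, BMPR1A in 21, ACVR2B in 20, ACVR2A in 19, BMPR1B in 18, TGFBR1 and TGFBR3 in 17 each, TGFBR2 in 12 and ACVR1 in 7. The median feature with an NCBI gene number was above 0 in 5 libraries. Of these features, 92.7% were above 0 in fewer libraries than BMPR1B, 57.1% in fewer than ACVR1 and 98.6% in fewer than BMPR2. Above 0.5 FPKM, BMPR2 was found in 13 libraries and ACVR2B in 6. Among the libraries where a receptor was above 0, the median level ran from 0.15 FPKM for TGFBR2 to 1.32 FPKM for BMPR1A. For the limma test a feature had to exceed 0.5 FPKM in at least 5 libraries, which 8 of the 9 receptors did, ACVR1 being the exception, among 6058 features in all. The median of these 6058 features was above 0 in 13 libraries.

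**Figure D1:**
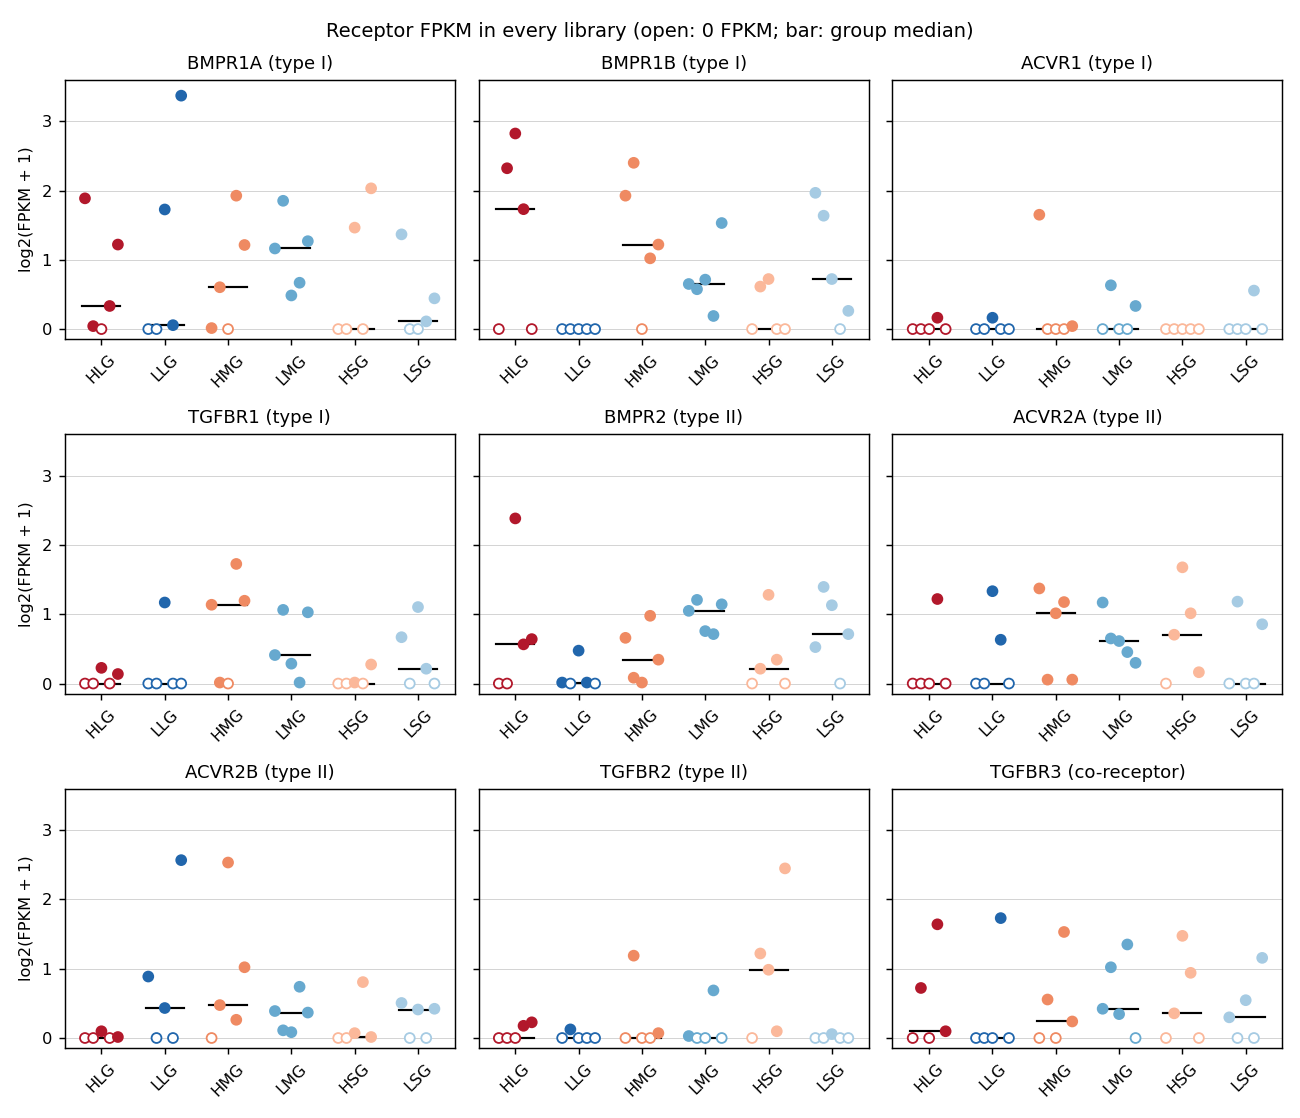
Level of each receptor in every library as log2(FPKM + 1), with 5 points per group, open points at 0 FPKM and a bar at the group median. BMPR1B reached 6.08 FPKM in HLG and was at 0 in all 5 LLG libraries.

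BMPR1B encodes a type I receptor that binds BMPs and takes part in the response to BMP15. In the order of library numbers 5, 7, 8, 9 and 10, which is kept for all values that follow, BMPR1B was at 0, 4, 6.08, 2.32 and 0 FPKM in HLG and at 0 in all 5 LLG libraries. In medium follicles, BMPR1B stood at 2.8, 4.28, 0, 1.03 and 1.33 FPKM in HMG and at 0.57, 0.49, 0.64, 0.14 and 1.89 FPKM in LMG. The small follicle libraries had 0, 0.53, 0.65, 0 and 0 FPKM in HSG and 2.91, 2.11, 0.65, 0 and 0.2 FPKM in LSG. High fertility libraries thus held the highest values in large and medium follicles and low fertility libraries in small follicles, and the 2 fertility classes overlapped at each size, in large follicles through the HLG libraries at 0. By group median, the order was HLG (2.32 FPKM), HMG (1.33), LSG (0.65), LMG (0.57), then HSG and LLG (both 0), and neighbours in this order overlapped. The highest BMPR1B value was in HLG-8, which had 1452 features above 0, against a median of 5194 over the 30 libraries.

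On the log2(FPKM + 1) scale, BMPR1B was higher in HLG than in LLG by 1.38 ± 0.55 (SE), with an unadjusted limma p of 0.0166 and an adjusted p of 0.976. The difference was 0.58 ± 0.55 in medium follicles (adjusted p = 1) and -0.65 ± 0.55 in small follicles (adjusted p = 0.919). By detection, BMPR1B was found in 3 of the 5 HLG and in 0 of the 5 LLG libraries (Fisher's exact test, two-sided p = 0.167). Without the 4 libraries not found in the mapping list, these were 3 of 4 HLG and 0 of 3 LLG libraries (Fisher's exact p = 0.143). LLG had the lowest share of all features above 0 of any group (10.4%, against 17.7% in HLG), and the part of this in the BMPR1B zeros was not tested. Over all sizes BMPR1B was above 0 in 9 of 15 high fertility and 9 of 15 low fertility libraries, and the averaged log2 difference was 0.44 ± 0.32 (limma adjusted p = 0.952). The fertility difference of BMPR1B was tested across the 3 sizes as an interaction, with an unadjusted limma p of 0.0416 and an adjusted p of 0.895. In contrasts chosen after the values were seen, the fertility difference in large follicles exceeded that in small follicles by 2.03 ± 0.78 (limma adjusted p = 0.837), and the excess over medium follicles was 0.79 ± 0.78 (limma adjusted p = 0.932).

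BMPR1A encodes another type I receptor used by BMPs. In large follicles, BMPR1A FPKM was 2.7, 0.03, 0, 0.26 and 1.33 in HLG and 0, 0, 2.31, 0.04 and 9.34 in LLG. The medium follicle values of BMPR1A were 0.01, 0.52, 0, 2.8 and 1.32 FPKM in HMG and 1.24, 2.61, 0.4, 0.59 and 1.41 FPKM in LMG. Small follicles gave 0, 0, 1.76, 0 and 3.09 FPKM in HSG and 1.58, 0, 0, 0.08 and 0.36 FPKM in LSG. LMG was the one group in which every library was above 0 for BMPR1A, LLG-10 held the highest value of any receptor in the 30 libraries, and the fertility classes overlapped at each size. LLG-10 had 988 features above 0, against a median of 5194 over the 30 libraries, and the part of this in its high value was not tested. The log2 differences of high against low fertility were -0.33 ± 0.60, -0.34 ± 0.60 and 0.31 ± 0.60 in large, medium and small follicles, all within 1 SE, with limma adjusted p-values of 0.979 to 1.

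The paralogues BMPR1A, above 0 in 21 libraries, and BMPR1B, above 0 in 18, were not always above 0 together. Both were above 0 in 14 of 30 libraries, 9 of 10 from medium follicles, 3 of 10 from small and 2 of 10 from large follicles. BMPR1B exceeded BMPR1A in 12 libraries, BMPR1A exceeded BMPR1B in 13, and both were at 0 in the other 5. In large follicles, 5 of 10 libraries had BMPR1A above 0 and BMPR1B listed at 0. A value listed at 0 does not show that a gene was absent, so these counts are descriptions. Over the 30 libraries Spearman's rho of the pair was -0.05, a description over points that also differ in how many features they detected.

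**Figure D2:**
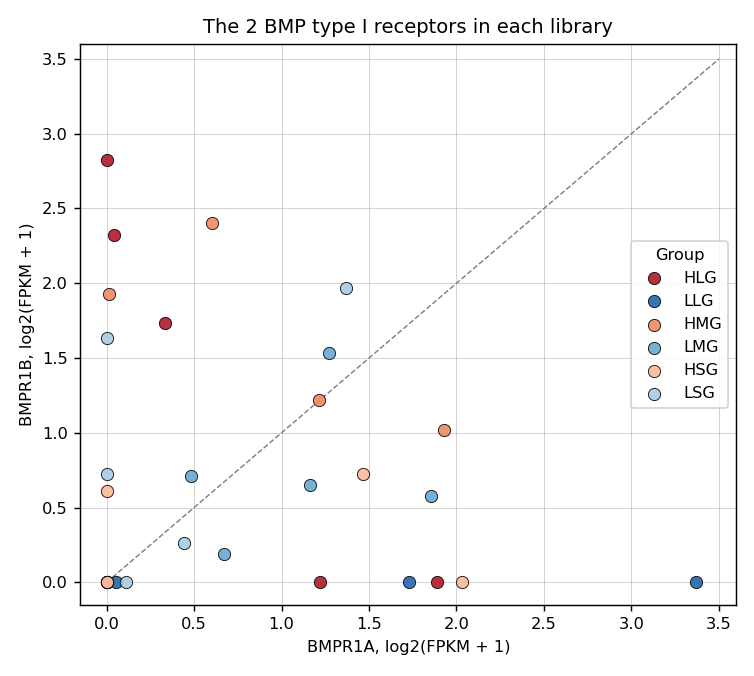
BMPR1B against BMPR1A in each of 30 libraries, both as log2(FPKM + 1), coloured by group, with a dashed line of equal levels. BMPR1B was the higher in 12 libraries and BMPR1A in 13, and 5 libraries lie together at 0 for both.

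TGFBR1 encodes the type I receptor for TGF-beta, which also serves GDF9. In large follicles, TGFBR1 FPKM was 0, 0, 0.17, 0 and 0.1 in HLG and 0, 0, 1.25, 0 and 0 in LLG. The medium follicle libraries gave TGFBR1 values of 1.2, 0.01, 0, 2.31 and 1.29 FPKM in HMG and 0.33, 1.09, 0.22, 0.01 and 1.04 FPKM in LMG. In small follicles, TGFBR1 FPKM was 0, 0, 0.01, 0 and 0.21 in HSG and 0.59, 0, 1.15, 0.16 and 0 in LSG. In 9 of 10 medium follicle libraries TGFBR1 was above 0, against 3 of 10 large follicle libraries, and the ranges of the sizes overlapped. The fertility differences were -0.16 ± 0.35, 0.25 ± 0.35 and -0.34 ± 0.35 on the log2 scale in large, medium and small follicles (limma adjusted p from 0.929 to 1).

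ACVR1 encodes a type I receptor for BMPs and was the least detected of the 9. Its 7 values above 0 were 0.12 FPKM in HLG-9, 0.12 in LLG-8, 2.14 in HMG-5, 0.03 in HMG-10, 0.55 in LMG-7, 0.26 in LMG-10 and 0.47 in LSG-9, and it was listed at 0 in the other 23 libraries. No group had ACVR1 above 0 in more than 2 libraries, and all groups overlapped. Without a filter on low values its fertility differences were between -0.11 and 0.15, each with an SE of 0.22 and a limma adjusted p of 1.

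BMPR2 encodes the type II receptor that binds BMPs, BMP15 and GDF9. In large follicles, BMPR2 FPKM was 0, 0, 4.22, 0.48 and 0.56 in HLG and 0.01, 0, 0.39, 0.01 and 0 in LLG. The medium follicle values were 0.58, 0.06, 0.01, 0.97 and 0.27 FPKM in HMG and 1.07, 1.31, 0.69, 0.64 and 1.21 FPKM in LMG. In small follicles, BMPR2 FPKM was 0, 0.16, 1.43, 0.27 and 0 in HSG and 0.44, 1.63, 1.19, 0 and 0.64 in LSG. All 10 medium follicle libraries were above 0 for BMPR2, LMG held 5 values at or above 0.64 FPKM, and the fertility classes overlapped at each size, in medium follicles through HMG-9. The fertility difference was 0.62 ± 0.43 in large, -0.56 ± 0.43 in medium and -0.39 ± 0.43 in small follicles on the log2 scale (limma adjusted p of 0.987, 1 and 0.941).

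BMPR2 was above 0 together with BMPR1B in 17 of 30 libraries, that is in 17 of the 18 with BMPR1B. By group these were 2 HLG, 0 LLG, 4 HMG, 5 LMG, 2 HSG and 4 LSG libraries. The pair had the highest Spearman's rho between any tested receptors over the 30 libraries, 0.54, and the lowest was -0.06 for BMPR1B and ACVR2B. The libraries also differ in how many features they detected, so these values are descriptions.

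ACVR2A encodes a type II receptor for activin that also binds BMPs. In large follicles, ACVR2A was above 0 in HLG-9 (1.33 FPKM), LLG-8 (1.52) and LLG-9 (0.55), with the other 7 libraries at 0. Medium follicles gave 1.59, 0.04, 1.02, 1.26 and 0.04 FPKM in HMG and 1.25, 0.57, 0.53, 0.37 and 0.23 FPKM in LMG. In small follicles, ACVR2A FPKM was 0, 0.63, 2.2, 1.02 and 0.12 in HSG and 0, 1.27, 0, 0 and 0.81 in LSG. ACVR2A was thus above 0 in all 10 medium follicle libraries and in 3 of 10 large follicle libraries, and high and low fertility overlapped at each size. Its fertility differences were -0.15 ± 0.43, 0.10 ± 0.43 and 0.30 ± 0.43 on the log2 scale in large, medium and small follicles (limma adjusted p from 0.964 to 1).

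ACVR2B encodes the paralogous activin type II receptor. In large follicles, ACVR2B FPKM was 0, 0, 0.07, 0 and 0.01 in HLG and 0.85, 0, 0.35, 0 and 4.93 in LLG. The medium follicle values were 0, 0.39, 4.79, 0.2 and 1.03 FPKM in HMG and 0.31, 0.08, 0.06, 0.67 and 0.29 FPKM in LMG. Small follicle libraries had 0, 0, 0.05, 0.75 and 0.01 FPKM in HSG and 0.42, 0, 0.33, 0 and 0.34 FPKM in LSG. The values at or above 1 FPKM were in LLG-10, HMG-8 and HMG-10, and the fertility classes overlapped at each size. On the log2 scale ACVR2B was -0.76 ± 0.42 in HLG relative to LLG, 0.52 ± 0.42 in HMG relative to LMG and -0.09 ± 0.42 in HSG relative to LSG (limma adjusted p of 0.976, 1 and 0.998). ACVR2A and ACVR2B were both above 0 in 9 of 10 medium, 4 of 10 small and 1 of 10 large follicle libraries.

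TGFBR2 encodes the type II receptor for TGF-beta. Among the large follicle libraries TGFBR2 was above 0 only in HLG-9 (0.13 FPKM), HLG-10 (0.17) and LLG-7 (0.09). In medium follicles, TGFBR2 FPKM was 0, 1.28, 0, 0 and 0.05 in HMG and 0.02, 0, 0, 0.61 and 0 in LMG. In small follicles, TGFBR2 FPKM was 0, 1.33, 0.98, 0.07 and 4.46 in HSG, whereas in LSG it was 0.04 in LSG-8 and 0 in the other 4 libraries. In HSG, 4 of 5 libraries lay above every LSG library, and HSG-5, in which all 9 receptors were at 0, made the groups overlap. TGFBR2 was higher in HSG than in LSG by 0.94 ± 0.30 on the log2 scale, with an unadjusted limma p of 0.00335 and an adjusted p of 0.509. TGFBR2 exceeded 0.5 FPKM in 5 libraries, 3 of them HSG, so it met the filter mainly through the group in which it was high. The differences in large and medium follicles were 0.06 ± 0.30 and 0.11 ± 0.30 (limma adjusted p = 1 for each). Averaged over sizes the difference was 0.37 ± 0.17, with an unadjusted limma p of 0.041 and an adjusted p of 0.952. TGFBR2 was above 0 in 8 of 15 high and 4 of 15 low fertility libraries (Fisher's exact test, two-sided p = 0.264).

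TGFBR3 encodes betaglycan, a co-receptor that presents TGF-beta to its receptors and inhibin to the activin type II receptors. In large follicles, TGFBR3 FPKM was 0, 0.65, 0, 2.12 and 0.07 in HLG and 0, 0, 0, 2.32 and 0 in LLG. The medium follicle values were 0, 0.47, 0, 1.89 and 0.18 FPKM in HMG and 0.34, 1.03, 0.27, 1.55 and 0 FPKM in LMG. In small follicles, TGFBR3 FPKM was 0, 0.28, 1.78, 0.92 and 0 in HSG and 0.23, 0, 0.46, 0 and 1.23 in LSG. Every group had both libraries at 0 and libraries above 1 FPKM, so all 6 groups overlapped. The 3 fertility differences were 0.15 ± 0.44, -0.16 ± 0.44 and 0.15 ± 0.44, each within 1 SE (limma adjusted p from 0.996 to 1). TGFBR1 and TGFBR2, the signalling pair for TGF-beta, were both above 0 in 8 of 30 libraries, and TGFBR2 and TGFBR3 in 10.

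**Figure D3:**
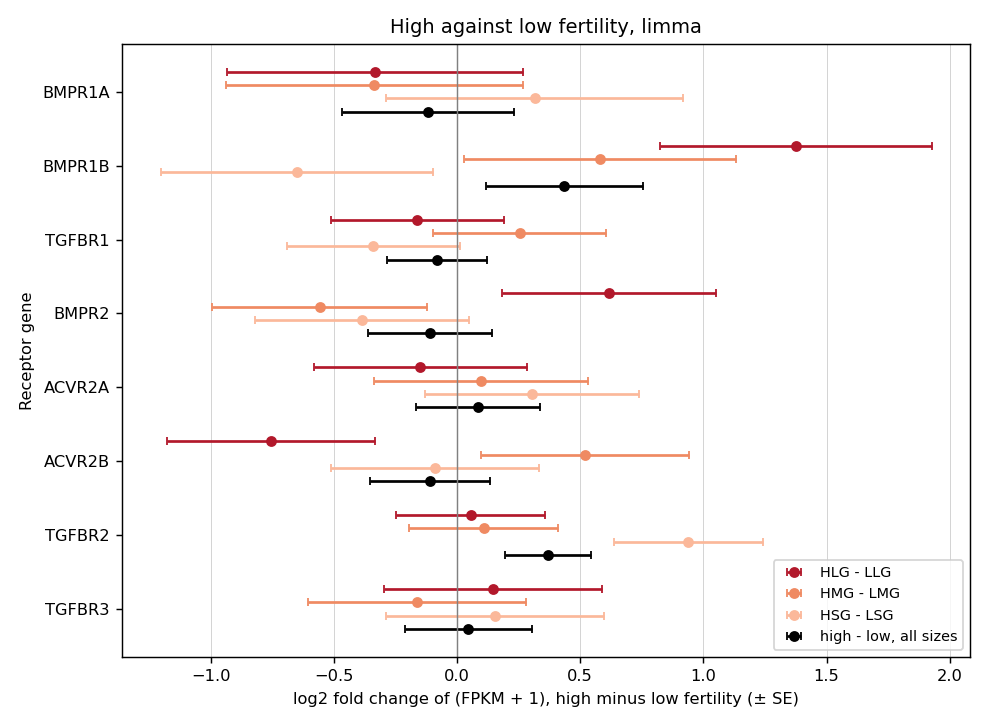
Difference of high minus low fertility for the 8 receptors tested, on the log2(FPKM + 1) scale with SE, within each follicle size (coloured) and averaged over sizes (black). The largest within-size values were 1.38 for BMPR1B in large follicles and 0.94 for TGFBR2 in small follicles.

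No receptor passed the limma threshold (adjusted p of 0.05) between fertility classes. In large follicles, 0 of 8 receptors were called (0% of the 6058 features), 1 was at an unadjusted p under 0.05 (BMPR1B; 4.8% of features) and the counts were 4 positive and 4 negative. Medium follicles gave 0 called (0% of features) and 0 at an unadjusted p under 0.05 (5.15% of features), with 5 receptors positive and 3 negative. Small follicles gave 0 called (0%) and 1 at an unadjusted p under 0.05 (TGFBR2; 6.39% of features), with 4 positive and 4 negative. Averaged over sizes, 0 were called (0%), 1 was at an unadjusted p under 0.05 (TGFBR2; 3.95% of features), and the median difference was -0.02 over the receptors and -0.01 over all features. TGFBR2 exceeded 0.5 FPKM in 5 libraries, 3 of them HSG, so it was tested mainly through the group in which it was high. Its counts here are therefore no support for a difference. Fisher's exact test on detection called 0 of 9 receptors (0% of 20125 features) in each of these 4 comparisons. At an unadjusted Fisher p under 0.05 were 0 receptors, beside 0.303% (large), 1.49% (medium), 0.626% (small) and 0.85% (all sizes) of features. Within a size, 5 against 5 libraries allow no Fisher's exact p below 0.00794. Over 20125 features a call would then need very many features at that p together, so 0 called within a size shows little. Without the 4 libraries not found in the mapping list, TGFBR2 was above 0 in 4 of 4 HSG and 1 of 5 LSG libraries (Fisher's exact p = 0.0476, adjusted p = 1), against 4 of 5 and 1 of 5 with all libraries (Fisher's exact p = 0.206, adjusted p = 1). The interaction of fertility and size called 0 receptors (0%), with 1 at an unadjusted limma p under 0.05 (BMPR1B; 4.67% of features).

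Receptor values were above 0 most often in the 2 medium follicle groups. In large follicles 21 of 45 receptor values in HLG and 15 of 45 in LLG were above 0, in medium follicles 33 in HMG and 38 in LMG, and in small follicles 23 in HSG and 24 in LSG. As shares these were 46.7% and 33.3%, 73.3% and 84.4%, and 51.1% and 53.3%. Over all features the shares were 17.7% in HLG, 10.4% in LLG, 26.5% in HMG, 38.6% in LMG, 21.7% in HSG and 27.8% in LSG, so the groups came in the same order except for HMG and LSG. LMG libraries detected 7 to 8 receptors each, LLG libraries 1 to 6, HMG-10 all 9 and HSG-5 none.

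**Figure D4:**
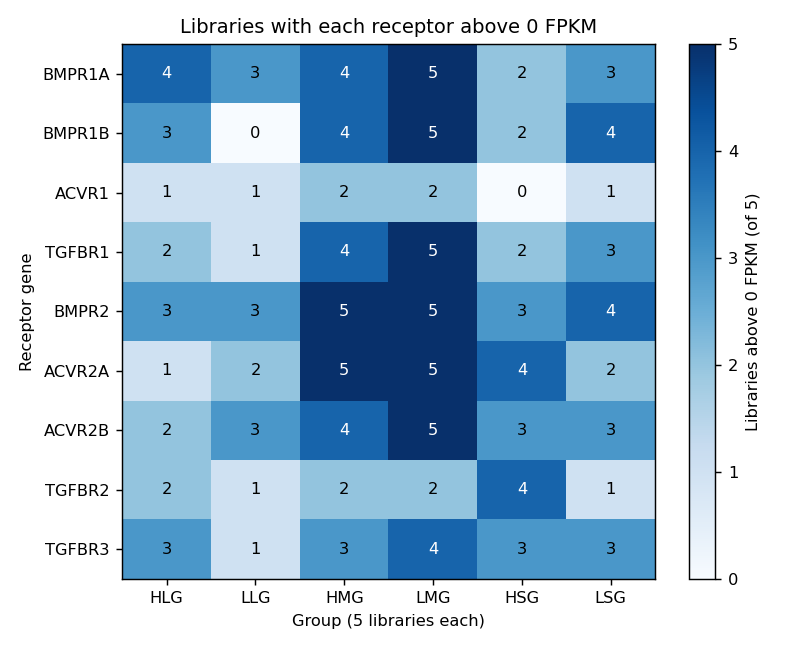
Number of libraries of 5 in which each receptor was above 0 FPKM, by group, with darker cells for more libraries. ACVR2A and BMPR2 were above 0 in all 10 medium follicle libraries, and BMPR1B was above 0 in all 5 LMG and none of the LLG libraries.

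**Figure D5:**
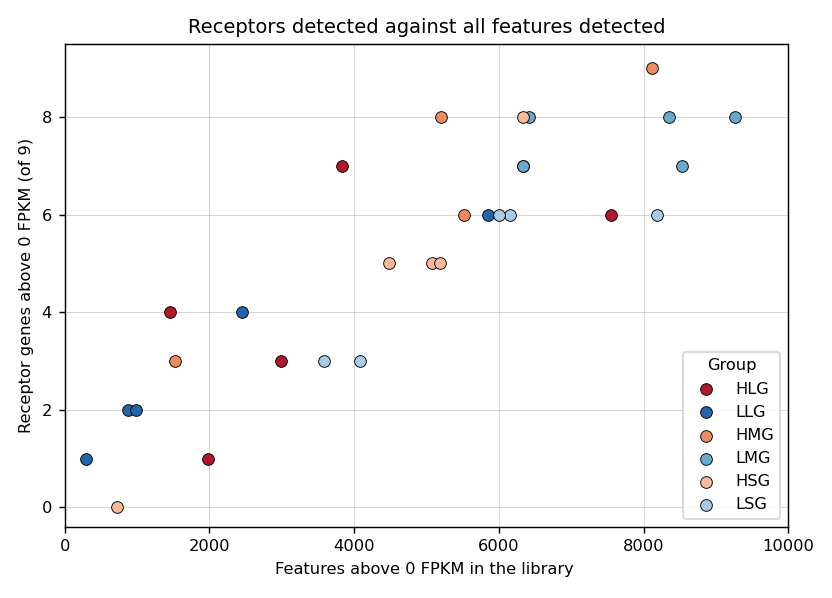
Receptors above 0 FPKM (of 9) against all features above 0 FPKM in each library, coloured by group. Libraries with few features mostly held few receptors, from 0 receptors in HSG-5 with 719 features to 9 in HMG-10 with 8117.

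Against medium follicles, detection in large follicles was lower for ACVR2A (3 of 10 against 10 of 10 libraries, Fisher's exact test p = 0.0031, adjusted p = 0.346), and for BMPR1B and TGFBR1 (each 3 of 10 against 9 of 10, p = 0.0198, adjusted p = 0.468). These 3 of 9 receptors were at an unadjusted Fisher p under 0.05, as were 6.17% of all features, and 0 were called (0% of features). Some medium follicle values were close to 0, with ACVR2A at 0.04 FPKM in HMG-7 and HMG-10. Above 0.5 FPKM, ACVR2A was found in 3 of 10 large and 6 of 10 medium follicle libraries. By the same limit, BMPR1B was found in 3 and 7 libraries and TGFBR1 in 1 and 5. The number of features above 0 moved with this contrast, and its part in these detection counts was not tested. Without the 4 libraries that have no mapping entry, ACVR2A was above 0 in 3 of 7 large follicle libraries (Fisher's exact p = 0.0147, adjusted p = 0.912) and BMPR1B and TGFBR1 in 3 of 7 (Fisher's exact p = 0.101, adjusted p = 1). By level, all 8 tested receptors had a negative log2 difference of large against medium follicles, with a median of -0.24 beside -0.25 over all features, but in a fit adjusted for each library's count of features above 0, BMPR1A (0.38), TGFBR3 (0.28) and TGFBR2 (0.03) turned positive. The lowest adjusted p by limma was 0.423 (unadjusted 0.0369), for TGFBR1 at -0.53 ± 0.25. It was the 1 of 8 receptors at an unadjusted p under 0.05, beside 11.5% of features, and 0 receptors were called (0% of features).

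Large against small follicles gave 0 of 8 receptors called by limma (0% of features) and 0 at an unadjusted p under 0.05 (8.42% of features). Medium against small follicles gave 0 called (0.0165%, a single feature without an NCBI gene number, MXLOC_131549) and 0 at an unadjusted p under 0.05 (5.13% of features). Fisher's exact test called 0 of 9 in both (0% of features), with 0 at an unadjusted p under 0.05 (1.66% and 0.979% of features). Of the 8 receptors tested, 7 had a positive log2 difference of medium against small follicles, with a median of 0.26 beside 0.05 over all features. In the fit adjusted for each library's count of features above 0, TGFBR3 (-0.10) and ACVR2A (-0.0054) turned negative.

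Among all pairs of groups, complete separation of a receptor occurred between LLG and LMG alone. BMPR1B was at 0 in LLG and between 0.14 and 1.89 FPKM in LMG, and BMPR2 was between 0 and 0.39 FPKM in LLG and between 0.64 and 1.31 FPKM in LMG. These are 2 of 8 receptors, beside 6.85% of the 6058 features that were likewise higher in LMG without overlap. For the other pairs of groups, in either direction, the share of features was 0% to 3.2%. This comparison was chosen after the values were seen. BMPR1B differed by -0.73 ± 0.55 (limma adjusted p = 0.633) and BMPR2 by -0.87 ± 0.43 (limma adjusted p = 0.532) on the log2 scale. By detection, BMPR1B was above 0 in 0 of 5 against 5 of 5 libraries, the smallest p that Fisher's exact test allows for 5 against 5 (0.00794), with an adjusted p of 0.512. With TGFBR1 (1 of 5 against 5 of 5) this made 2 of 9 receptors at an unadjusted Fisher p under 0.05, beside 9.3% of features, and Fisher's exact test called 0 (0% of features). Limma called 0 of 8 receptors (0% of features), with 0 at an unadjusted p under 0.05 (9.38% of features). With limma's sample quality weights, which down-weight variable libraries, BMPR2 passed the threshold (-0.91 ± 0.29, limma adjusted p = 0.0445). It was the 1 of 8 receptors called, beside 636 of the 6058 features.

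Other genes of the pathway were at similar or lower detection, and limma called none of them in the 7 contrasts of fertility and size. Of 18 ligand genes measured, 5 passed the filter, and those seen most often were TGFB2 (20 libraries), BMP5 (14) and INHBA, the activin beta A subunit (14). GDF9 was above 0 in 6 libraries and BMP15 in 1, both made mainly by the oocyte. Of 10 genes for other receptors, co-receptors and related proteins 2 passed. Most detected were LTBP1 (17), which binds latent TGF-beta and is no receptor, the activin type I receptor ACVR1B (12) and the pseudoreceptor BAMBI (10). Of 6 antagonists 2 passed, led by GREM1 (13) and TWSG1 (13), which bind BMPs, and FST (8), which binds activin. Of 14 SMAD genes and regulators 7 passed, led by SKIL (23), a repressor of SMAD activity, SMAD4 (22), the shared SMAD, and SMAD5 (21), a SMAD of the BMP branch. Of 9 target genes 3 passed, led by HAS2 (22), with ID2 and ID4 at 9 each. Over these lists and contrasts, an unadjusted limma p under 0.05 occurred for BMP5 (-0.62 ± 0.25) and TWSG1 (-0.62 ± 0.28), both lower in high fertility over all sizes, and for LTBP1, higher in HLG than LLG (0.76 ± 0.37) and over all sizes (0.45 ± 0.22). These are 4 of 133 tests (3.01%), beside 3.95% to 11.5% of all features at an unadjusted p under 0.05 in the same contrasts, and none passed adjustment (limma adjusted p from 0.952 to 0.976).

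By Spearman's rho over the 30 libraries, the genes with a pattern most like that of BMPR1B were ABCB10 (0.765), TROVE2 (0.752) and ZFP90 (0.711). The closest gene was BCL11A for BMPR1A (0.730), HNF4A for TGFBR1 (0.833), ATF7IP for BMPR2 (0.795), ZNF260 for ACVR2A (0.717), LYSMD3 for ACVR2B (0.730), IDH1 for TGFBR2 (0.708) and OXTR for TGFBR3 (0.799). Each is the highest value over all tested genes with a symbol, the libraries' depth is shared by both genes of a pair, and the values are descriptions.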

How the data were processed

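The authors deposited FPKM values with 2 decimals. Per the study's methods, rRNA was removed before sequencing, unique alignments were kept, duplicates were removed with picard and FPKM was computed with Cufflinks on an Ensembl annotation, although the table carries NCBI gene numbers. The aligner and genome build are not given in the sources used here, and no coordinates were used. All 30 libraries were tested in 1 fit with limma 3.58.1 (R 4.3.3) on log2(FPKM + 1), with a trended and robust prior, for features above 0.5 FPKM in at least 5 libraries. Detection (above 0 FPKM) was compared with Fisher's exact test in scipy 1.17.1 (Python 3.11.15) over 20125 features. Adjusted p-values follow Benjamini and Hochberg over all features within a contrast, the threshold was 0.05, and tests were two-sided. Fold changes on the log2(FPKM + 1) scale understate the change of low genes. Both steps were run on simulated data with large planted differences, as a check of the code only. The limma simulation used normally distributed values without the many zeros of these data, and the detection simulation compared larger sets than 5 libraries. Neither shows how the tests perform on these data.

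Depth was read from the steps between low FPKM values of 789 features with a span of 900 to 1000 bp. In 20 libraries 1 fragment in a 1 kb gene was worth 0.0612 to 0.1162 FPKM, and 10 libraries gave no reading. The receptors and gene lists were chosen with earlier results of these data known. All 9 receptors were named, with the 3 most often detected genes of each pathway list, called genes, and the genes with the most similar pattern (3 for BMPR1B, 1 for each other). Alternatives were other pseudocounts, filters, scalings, weights, a covariate, a replicate block, detection limits and leaving out libraries. Libraries of the same number did not deviate together.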

Additional observations from a re-analysis of the deposited data

Results flagged for a closer look

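Single libraries that stood far from the other 4 of their group were searched for by the gap to the nearest value, and 23 were found in the 52 sets of 5 receptor values (of 54) that held a value above 0. In normally distributed values about 1 set in 20 would be found by chance, but 116 of the 270 receptor values were at 0, so that rate does not hold here and the number found is no measure of excess. They involved 18 libraries, and in 8 of the 23 the other 4 libraries were at 0. The number of receptors above 0 and their summed FPKM were searched in the same way and no library was found.

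Among type I receptors, BMPR1A reached 9.34 FPKM in LLG-10 (others up to 2.31) and 1.58 in LSG-5 (others up to 0.36). BMPR1B reached 1.89 FPKM in LMG-10, where the others had 0.14 to 0.64. TGFBR1 was at 1.25 FPKM in LLG-8 (others at 0) and 0.21 in HSG-10 (others up to 0.01). ACVR1 stood out at 0.12 FPKM in HLG-9, 0.12 in LLG-8 and 0.47 in LSG-9 (others at 0) and at 2.14 in HMG-5 (others up to 0.03).

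Among type II receptors, BMPR2 was at 4.22 FPKM in HLG-8 (others up to 0.56), 0.39 in LLG-8 (others up to 0.01) and 1.43 in HSG-8 (others up to 0.27). ACVR2A was at 1.33 FPKM in HLG-9 with the others at 0. ACVR2B was at 4.93 FPKM in LLG-10 (others up to 0.85), 4.79 in HMG-8 (up to 1.03), 0.75 in HSG-9 (up to 0.05) and 0.07 in HLG-8 (up to 0.01). TGFBR2 was at 1.28 FPKM in HMG-7 (up to 0.05), 0.61 in LMG-9 (up to 0.02), 0.09 in LLG-7 and 0.04 in LSG-8 (others at 0 in both). The co-receptor TGFBR3 was at 2.32 FPKM in LLG-9 (others at 0) and 1.89 in HMG-9 (up to 0.47). The highest of the flagged values were in LLG-10, HMG-8 and HLG-8. These libraries had 988, 1521 and 1452 features above 0, against a median of 5194 over the 30 libraries.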

How the results depend on the processing

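For the 61 log2 differences examined, 599 alternatives other than leaving out 1 library gave 575 values of the same direction and side of the threshold, 23 of opposite sign and 1 newly past the threshold, BMPR2 in LLG against LMG with sample quality weights. That comparison then had 1 of 8 receptors called, beside 636 of the 6058 features. Leaving out 1 library gave 1795 values, of which 38 in 19 differences changed sign and 0 passed the threshold. The largest difference that changed sign was 0.334 in size. The cause of these changes was not tested.

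Adjusting for each library's count of features above 0, TGFBR3 changed sign in HLG against LLG (-0.015), HMG against LMG (0.10), large against small (0.18), large against medium (0.28) and medium against small (-0.10). The same adjustment turned TGFBR1 large against small (0.082), BMPR1A large against medium (0.38), ACVR2A medium against small (-0.0054), and TGFBR2 in HLG against LLG (-0.014) and large against medium (0.032). Without the 4 libraries missing from the mapping list, TGFBR3 gave 0.050 in large against small and in large against medium and -0.00024 in medium against small, TGFBR1 large against small 0.0056 and BMPR1A large against medium 0.14. Sample quality weights gave TGFBR1 0.034 in HLG against LLG and 0.035 in high against low, BMPR1A 0.00051 in high against low and ACVR2A 0.11 in HLG against LLG. A pseudocount of 0.1 gave BMPR1B -0.35 in large against small and ACVR2A -0.16 in HMG against LMG. A pseudocount of 10 gave TGFBR3 0.0011 in large against small and BMPR1A 0.038 in large against medium.

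Leaving out 1 library, BMPR1A ranged from -0.63 to 0.25 in HLG against LLG and from -0.23 to 0.077 in high against low (positive without LLG-10 in both), from -0.018 to 0.56 in HSG against LSG (negative without HSG-10) and from -0.35 to 0.091 in large against medium (positive without any of 8 libraries). BMPR1B large against small ranged from -0.086 to 0.27 (negative without HLG-7, HLG-8 or LSG-9). TGFBR1 ranged from -0.22 to 0.073 in HLG against LLG (positive without LLG-8) and from -0.19 to 0.014 in large against small (without LSG-8). ACVR2A ranged from -0.39 to 0.086 in HLG against LLG (without LLG-8) and from -0.061 to 0.27 in HMG against LMG (without HMG-5 or HMG-9). ACVR2B ranged from -0.25 to 0.041 in high against low and -0.047 to 0.27 in large against small (LLG-10 in both), and from -0.42 to 0.011 in large against medium (HMG-8). TGFBR3 ranged from -0.14 to 0.49 in HLG against LLG, -0.43 to 0.018 in HMG against LMG, -0.076 to 0.34 in HSG against LSG, -0.050 to 0.16 in high against low, -0.23 to 0.057 in large against small, -0.30 to 0.0061 in large against medium and -0.064 to 0.18 in medium against small. BMPR1B in HLG against LLG stayed between 1.01 (without HLG-8) and 1.72 (without HLG-10). TGFBR2 in HSG against LSG ranged from 0.94 to 1.18, the latter without HSG-5, but gave no value without HMG-7, LMG-9, HSG-7, HSG-8 or HSG-10, since it then no longer met the filter.

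With a replicate block (library number as a term), 0 receptors were called in any comparison, the log2 difference of BMPR1B in HLG against LLG was again 1.38, and TGFBR2 in HSG against LSG had a limma adjusted p of 0.494. Deviations of same-numbered libraries correlated between -0.034 and 0.12, so the numbers were not treated as pairing libraries. A fit with only the groups compared was not made for high against low, the interaction or the contrasts of the fertility difference between sizes. Counting 1 FPKM or more as detected left BMPR1A in 12 libraries, BMPR1B in 10 and ACVR1 in 1. Genes that most cells use were also often listed at 0, and whether depth, cell number or RNA amount sets these zeros was not tested.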

Other observations

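Markers of other cells were looked at beside the receptors. Of 5 oocyte genes in the table, BMP15 was found in 1 library, DAZL, ZP2 and ZP3 in 2 each and GDF9 in 6, and their summed level was 0 in every LLG library and up to 10.16 FPKM elsewhere. Of 4 theca genes ACTA2 was above 0 in 11 libraries (at most 0.31 FPKM), STAR in 7, TAGLN in 3 and CYP17A1 in 1. The 6 immune genes were above 0 in 1 to 8 libraries and the 5 endothelial genes in 4 to 14, with KDR the most frequent. Their summed levels per library ran from 0 to 6.24 FPKM for immune and 0 to 6.4 FPKM for endothelial genes, and the part of other cells in the receptor values was not tested.

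Of 11 granulosa markers measured, only GJA1 and INHBA met the filter of the limma test. In large against small follicles the log2 difference was -0.70 ± 0.35 for GJA1, a gap junction gene (limma adjusted p = 0.581), and 0.26 ± 0.47 for INHBA (limma adjusted p = 0.873).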
